A study of Drosophila melanogaster with 16 samples.

Results

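The genes described here are the dpr, DIP, beat and side genes of Drosophila melanogaster, 4 families of immunoglobulin-domain cell surface and secreted proteins of the nervous system, in eye discs mutant for Polycomb group genes. They were chosen by symbol (dpr with a number, or a name that begins with DIP-, beat- or side), and a gene entered when the authors' deposited tables listed it at a 5% false discovery rate in at least 1 mutant. The symbol table held 54 such genes (21 dpr, 11 DIP, 14 beat and 8 side), of which 32 were listed, among 6774 genes listed in any table. Listing was in either direction, so the rule fixed that each gene was called in some table, and not whether it was higher or lower.

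The series measured RNA of eye discs of L3 larvae, the epithelium that forms the adult eye and part of the head, with RNA-seq. The mutants were labelled Ez731 and Suz12 (here Su(z)12), both compared with wild type of the strain FRT2A, PH505 (here ph505), compared with wild type FRT19A, and Psc_Suz2_1.b8 (here Psc-Su(z)2, and Psc Susz2 1.b8 in the genotype label), compared with wild type FRT42D. FRT is a recombination site that mutants and controls both carry, and the labels do not say how much of a disc was mutant. E(z) and Su(z)12 belong to the complex PRC2, which methylates histone H3 at lysine 27, while ph, Psc and Su(z)2 belong to PRC1, and both complexes keep developmental genes silent. Each of the 7 RNA groups (4 mutants, 3 controls) was 1 sample, labelled as replicates 1 and 2 together, so no spread between replicates is available. The p-values are those of the authors' edgeR test and measure only the spread within it, which may be technical.

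The Dpr proteins bind DIP proteins, and Beat proteins bind Side proteins, so that a cell showing one partner can recognise a cell showing the other. In the fly visual system photoreceptors and the optic lobe neurons they contact show different sets of Dpr and DIP proteins, and matched pairs take part in the choice of synaptic partners and in neuron survival. Side was found as an attractant on muscle for motor axons that carry Beat-Ia. The larval eye disc holds differentiating photoreceptor neurons behind the morphogenetic furrow, undifferentiated epithelium ahead of it, and glia.

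Called genes and their direction have a limit in the ph505 table. The mutated genes were looked up first, and edgeR log2 folds in the authors' deposited tables were −0.99 for E(z) in Ez731 and −3.94 for Psc in Psc-Su(z)2, which sets folds as mutant over control. In the table labelled ph505 the genes ph-p (0.78) and ph-d (0.90) were both higher, so its direction rests on its label, and Su(z)12 and Su(z)2 were not listed in the tables of their own mutants. The tables give no read totals, so depth is unknown. A gene that a table does not list was either not tested or not called, and is not read as unchanged.

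Levels in the 2 arms of each comparison were worked out from the deposited log2 fold and log2 CPM, taking the CPM as the mean of both arms. The FRT2A control stands in 2 tables, and for 100% of the 631 genes listed in both, the 2 control levels found this way lay within 10% of each other. FRT19A, FRT42D and the mutants each stand in 1 table, so their levels have no such check. These levels are in CPM, counts scaled to library size, without correction for gene length, so they compare samples for 1 gene and not genes with each other.

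Most genes of the families that were listed in Psc-Su(z)2 were lower there. In the other 3 mutants fewer of them were listed, where fewer of all genes were called too. The authors' deposited Psc-Su(z)2 table listed 29 of the 54 genes (53.7%), 3 higher (5.56%) and 26 lower (48.1%). Of all genes tested there, 69.4% were called, 35.5% higher and 33.9% lower. The first share is over all 54 genes, tested or not, and cannot be set against that of tested genes, but the split was uneven where that of all genes was near even. The median log2 fold of the 29 was −2.76, against 0.21 over all 6170 called genes and −0.40 over the 3085 called genes below the median log2 CPM, where 28 of the 29 lay. All 29 changed by at least 2-fold, as did 40.2% of all called genes and 58.5% of those below the median log2 CPM.

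In Ez731 the deposited table listed 7 of the 54 genes (13%), with 3 higher and 4 lower, where 9.87% of all tested genes were called, 3.46% higher and 6.41% lower. In Su(z)12 it listed 11 (20.4%), with 3 higher and 8 lower, where 14.6% of all tested genes were called, 5.89% higher and 8.73% lower. In ph505 it listed 15 (27.8%), with 5 higher and 10 lower, where 26.7% were called, 12.1% higher and 14.6% lower. Since it is not known how many of the 54 were tested, these shares are the lowest they can be. They cannot be set against those of tested genes. Of the 15 listed in ph505, 66.7% were lower, as were 54.7% of all called genes and 62.4% of those below the median log2 CPM. Median log2 folds were −1.03, −1.10 and −0.84 in Ez731, Su(z)12 and ph505, against −1.01, −1.03 and −0.78 for called genes below the median log2 CPM of each table. These 3 medians were thus close to those of other called genes at low levels, while that of Psc-Su(z)2 was not. The levels were not matched, and at low levels only larger folds are called. In Psc-Su(z)2 the median log2 CPM of the families was 2.09, against 3.70 for those other genes. In Ez731, Su(z)12 and ph505 it was 1.44 against 2.48, 3.07 against 2.53 and 3.09 against 3.49.

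**Figure D1:**
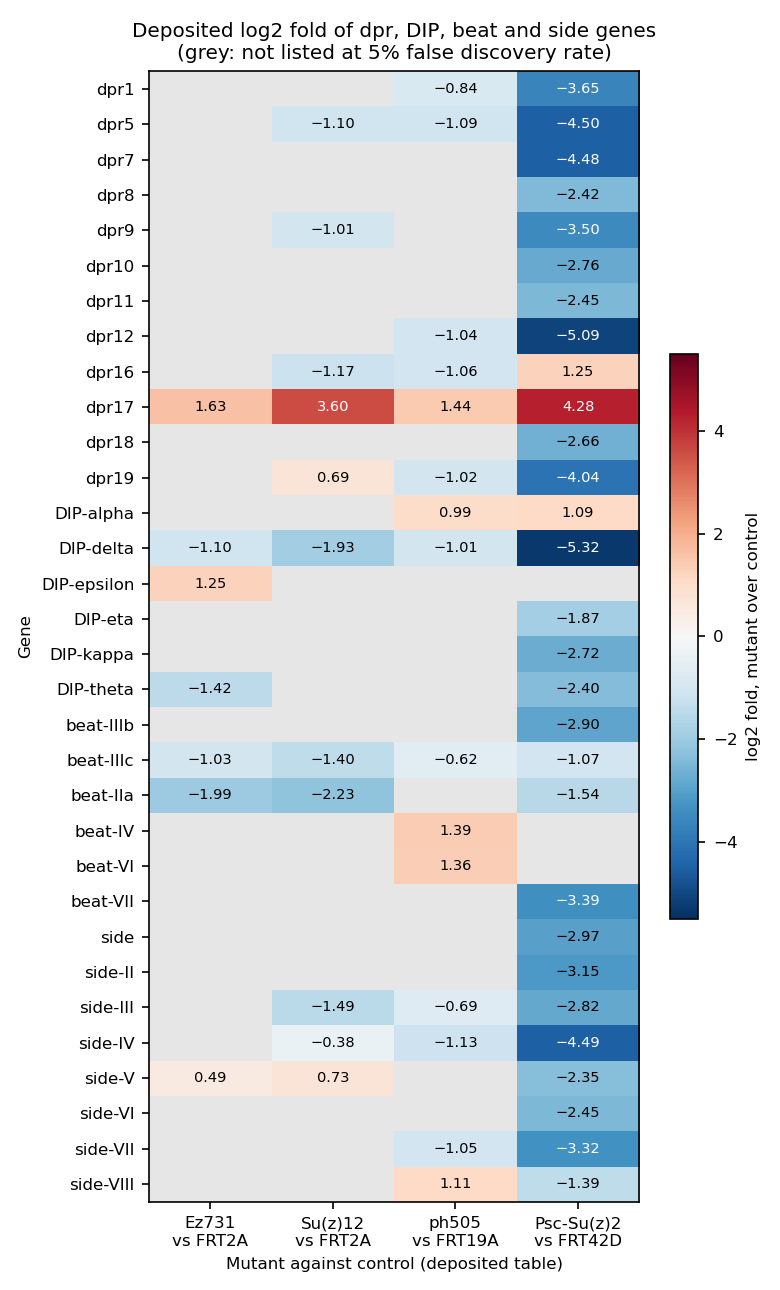
Map of the deposited log2 folds (colour and number in each cell) of the 32 genes, in rows, in the 4 mutants, in columns; grey cells are genes a table does not list. The Psc-Su(z)2 column holds 29 values, 26 of them negative, and the dpr17 row is positive in all 4 columns.

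**Figure D2:**
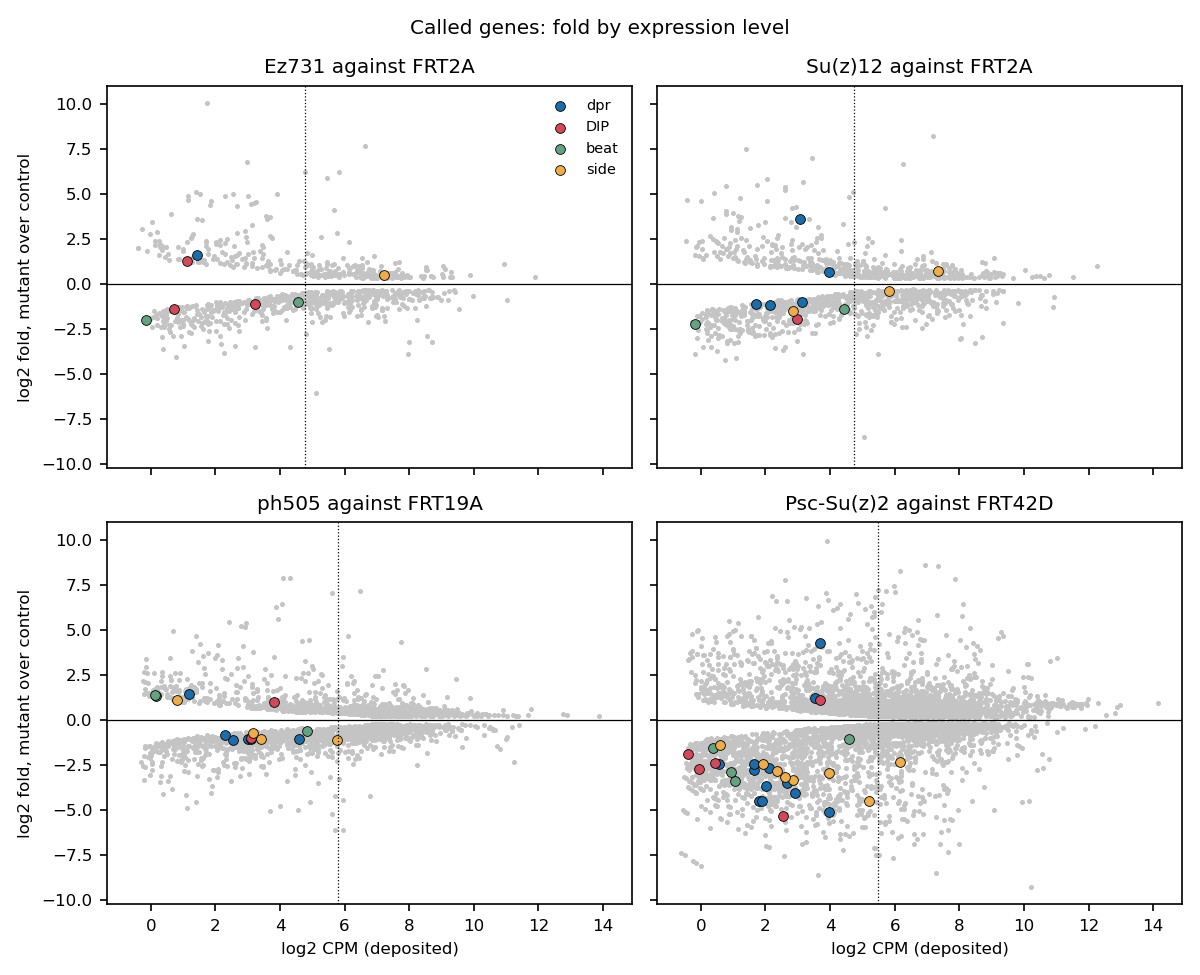
Log2 fold of every called gene (grey points) against its deposited log2 CPM, with the genes of the 4 families in colour, for each of the 4 tables; the dotted line is the median log2 CPM of the table. In Psc-Su(z)2 most coloured points lie left of the dotted line and between −2 and −5.32, and dpr17 stands alone at 4.28.

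Most listed dpr genes fell in Su(z)12 (3 of 5), ph505 (5 of 6) and Psc-Su(z)2 (10 of 12). The gene dpr17 (FBgn0051361), the only one listed in Ez731, rose in all 4 mutants. Its control level was 1.33 CPM in FRT2A by the Ez731 table, 1.28 CPM in FRT2A by the Su(z)12 table, 1.22 CPM in FRT19A and 1.27 CPM in FRT42D. Its mutant level was 4.11 CPM in Ez731, 15.5 CPM in Su(z)12, 3.32 CPM in ph505 and 24.6 CPM in Psc-Su(z)2. The controls were thus at nearly 1 level, the mutants all lay above it, and Su(z)12 and Psc-Su(z)2 lay above the other pair. The authors' deposited log2 folds were 1.63 in Ez731 (edgeR adjusted p = 0.00177), 3.60 in Su(z)12 (5.8e-24), 1.44 in ph505 (0.0011) and 4.28 in Psc-Su(z)2 (2.61e-51). Among all called genes it had the 29th highest fold in Su(z)12 and the 94th highest in Psc-Su(z)2. Ez731 and Su(z)12 share their control, so these 2 folds are not independent, and the difference between mutants was not tested. No other annotated gene overlaps dpr17. The next but one protein-coding gene in the annotation, dpr15, was listed in no table.

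Of the other dpr genes, which encode the Dpr partners of the pairs, 10 fell in Psc-Su(z)2 and dpr16 rose. The largest fall was that of dpr12 (FBgn0085414), the partner gene of DIP-delta. Its level was 32.3 CPM in FRT19A and 15.7 CPM in ph505, and 30.4 CPM in FRT42D and 0.891 CPM in Psc-Su(z)2. The 2 controls were thus close, and Psc-Su(z)2 fell much further than ph505. The deposited log2 folds were −1.04 (edgeR adjusted p = 7.81e-08) and −5.09 (2.83e-80). Neither PRC2 table listed dpr12, so its level there is unknown and it is not read as unchanged. The smallest called folds at a log2 CPM within 0.5 of 5 were 0.39 in Ez731 and 0.33 in Su(z)12. These are the smallest among many genes and set no limit for dpr12.

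The gene dpr5 had 4.49 CPM in FRT2A and 2.1 CPM in Su(z)12, 7.92 CPM in FRT19A and 3.72 CPM in ph505, and 6.62 CPM in FRT42D and 0.292 CPM in Psc-Su(z)2. It was lower in each of these 3 mutants, with deposited log2 folds of −1.10 (edgeR adjusted p = 0.0378), −1.09 (0.00169) and −4.50 (2.17e-23). Its neighbour dpr4, the next protein-coding gene, was listed in no table. For dpr9 the levels were 11.7 CPM in FRT2A and 5.85 CPM in Su(z)12, and 11.7 CPM in FRT42D and 1.04 CPM in Psc-Su(z)2. From the same control level it fell further in Psc-Su(z)2, with deposited log2 folds of −1.01 (edgeR adjusted p = 0.00424) and −3.50 (1.41e-22). The founding gene of the family, dpr1, found in a study of the feeding response to salt, had 6.31 CPM in FRT19A and 3.52 CPM in ph505, and 7.55 CPM in FRT42D and 0.602 CPM in Psc-Su(z)2. Its deposited log2 folds were −0.84 (edgeR adjusted p = 0.0267) and −3.65 (8.48e-20).

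The other dpr genes that fell were listed in Psc-Su(z)2 alone. They were dpr7 (FBgn0053481), from 7.15 CPM in FRT42D to 0.319 CPM (deposited log2 fold −4.48, edgeR adjusted p = 1.04e-21), dpr10 (−2.76), dpr18 (−2.66), dpr11 (−2.45) and dpr8 (−2.42). The Dpr10 protein is known as a partner of DIP-alpha on muscle and in the optic lobe, and Dpr11 as the partner of DIP-gamma that marks a subtype of R7 photoreceptor. The levels of these last 4 in FRT42D were 5.48, 7.37, 2.48 and 5.22 CPM and in the mutant 0.807, 1.17, 0.454 and 0.978 CPM, in the order of their names. That no other table lists them does not show that the mutants differ, as the smallest called folds near a log2 CPM of 2 were 1.0, 0.89 and 0.77 in Ez731, Su(z)12 and ph505.

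Among DIP genes, which encode the larger partners of Dpr proteins, DIP-delta (FBgn0085420) fell in all 4 mutants. Its control level was 12.6 CPM in FRT2A by both tables, 11.4 CPM in FRT19A and 11.5 CPM in FRT42D. Its mutant level was 5.89 CPM in Ez731, 3.30 CPM in Su(z)12, 5.67 CPM in ph505 and 0.288 CPM in Psc-Su(z)2. All 4 mutants lay below all controls, and Psc-Su(z)2 was the lowest. The deposited log2 folds were −1.10 (edgeR adjusted p = 0.00173), −1.93 (5.29e-08), −1.01 (0.00412) and −5.32 (8.67e-36), in that order. The last was the lowest fold of the families and the 85th lowest of all 6170 called genes in Psc-Su(z)2. The pair of DIP-delta and dpr12, whose proteins are known to bind each other in the mushroom body, thus had both genes lower in ph505 and in Psc-Su(z)2.

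The gene DIP-alpha (FBgn0052791) rose in both PRC1 mutants. It had 9.34 CPM in FRT19A and 18.6 CPM in ph505, and 8.28 CPM in FRT42D and 17.7 CPM in Psc-Su(z)2. Both mutant values lay above both control values, with 1 value in each arm. The deposited log2 folds were 0.99 (edgeR adjusted p = 7.39e-05) and 1.09 (2.97e-07). Of its known partner genes, dpr10 fell in Psc-Su(z)2 (−2.76) and dpr6 was listed in no table. DIP-alpha holds other genes within its span, and none of the protein-coding ones was listed in these 2 tables.

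The other DIP genes were at low levels, where few reads stand behind a fold. DIP-theta had 2.39 CPM in FRT2A and 0.892 CPM in Ez731 (deposited log2 fold −1.42, edgeR adjusted p = 0.0217), and 2.26 CPM in FRT42D and 0.428 CPM in Psc-Su(z)2 (−2.40, 5.74e-06). In Psc-Su(z)2 the deposited folds of DIP-kappa and DIP-eta were −2.72 (edgeR adjusted p = 1.67e-05) and −1.87 (0.00339), from control levels of 1.68 and 1.19 CPM. DIP-eta and DIP-theta, which have 1 protein-coding gene between them in the annotation, were both lower there. DIP-epsilon was listed in Ez731 alone, at 1.30 CPM in FRT2A and 3.10 CPM in the mutant (1.25, edgeR adjusted p = 0.0431), the p closest to the threshold among the listed values of the 4 families. Nepl6, a gene that overlaps it, fell in the same table (−2.08), and reads of overlapping genes cannot be told apart where libraries do not keep strand.

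Among beat genes, beat-IIIc (FBgn0032629) fell in all 4 mutants, by 1.53-fold to 2.63-fold. Its control level was 31.6 and 31.2 CPM in FRT2A by the 2 tables, 34.9 CPM in FRT19A and 32.6 CPM in FRT42D. Its mutant level was 15.5 CPM in Ez731, 11.9 CPM in Su(z)12, 22.8 CPM in ph505 and 15.5 CPM in Psc-Su(z)2, all below all controls. For beat-IIIc the deposited log2 folds were −1.03 (edgeR adjusted p = 3.19e-07), −1.40 (3.91e-13), −0.62 (0.00279) and −1.07 (1.56e-12). Unlike for DIP-delta, the fold in Psc-Su(z)2 did not lie beyond that of Su(z)12, though the difference was not tested.

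The gene beat-IIa, whose protein binds Side-IV, was near the lower end of the listed levels and fell in 3 mutants. It had 1.45 CPM in FRT2A against 0.366 CPM in Ez731 and 0.309 CPM in Su(z)12, and 1.93 CPM in FRT42D against 0.663 CPM in Psc-Su(z)2. The deposited log2 folds were −1.99 (edgeR adjusted p = 0.0141), −2.23 (0.00369) and −1.54 (0.0123). Its paralog beat-IIb, 4 protein-coding genes away, was listed in no table. Listed in Psc-Su(z)2 alone were beat-VII, from 3.76 to 0.357 CPM (−3.39, edgeR adjusted p = 1.01e-11), and beat-IIIb, from 3.34 to 0.447 CPM (−2.90, 9.61e-10). In ph505 alone beat-IV (1.39, edgeR adjusted p = 0.0298) and beat-VI (1.36, 0.0235) were higher, from control levels of 0.603 and 0.627 CPM.

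All 8 side genes were listed in Psc-Su(z)2 and all 8 were lower there, with deposited log2 folds from −1.39 to −4.49 and a median of −2.89. The largest fall was that of side-IV (FBgn0038156), known for a role in layer-specific synapse choice in the lamina with Beat-IIb. It had 64.6 CPM in FRT2A and 49.5 CPM in Su(z)12, 75.0 CPM in FRT19A and 34.2 CPM in ph505, and 71.2 CPM in FRT42D and 3.17 CPM in Psc-Su(z)2. The 3 controls lay close together, Su(z)12 only a little lower, and Psc-Su(z)2 far below. In the deposited tables the log2 folds were −0.38 (edgeR adjusted p = 0.0109), −1.13 (4.99e-11) and −4.49 (3.99e-182). Of the partner genes of side-IV, beat-IIa fell in Psc-Su(z)2 (−1.54) and beat-IIb was not listed.

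The founding gene side (FBgn0016061) had 28.0 CPM in FRT42D and 3.57 CPM in Psc-Su(z)2 (deposited log2 fold −2.97, edgeR adjusted p = 6.97e-40), and its partner gene beat-Ia was listed in no table. The same held for side-VI, with 6.4 CPM in FRT42D and 1.17 CPM in Psc-Su(z)2 (−2.45, edgeR adjusted p = 1.11e-09), and its partner genes beat-Va, beat-Vb and beat-Vc. Of the others, side-II fell from 11.0 to 1.24 CPM in Psc-Su(z)2 (−3.15, edgeR adjusted p = 4.58e-20). For side-VII the levels were 14.4 CPM in FRT19A and 6.95 CPM in ph505, and 13.1 CPM in FRT42D and 1.32 CPM in Psc-Su(z)2. Its deposited log2 folds were −1.05 (edgeR adjusted p = 0.00124) and −3.32 (2.7e-25).

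The gene side-III fell in 3 mutants, with 10.5 CPM in FRT2A and 3.75 CPM in Su(z)12, 11.1 CPM in FRT19A and 6.84 CPM in ph505, and 8.98 CPM in FRT42D and 1.27 CPM in Psc-Su(z)2. Deposited log2 folds of side-III were −1.49 (edgeR adjusted p = 2.86e-05), −0.69 (0.0298) and −2.82 (1.35e-16). By fold, Su(z)12 stood between ph505 and Psc-Su(z)2.

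**Figure D3:**
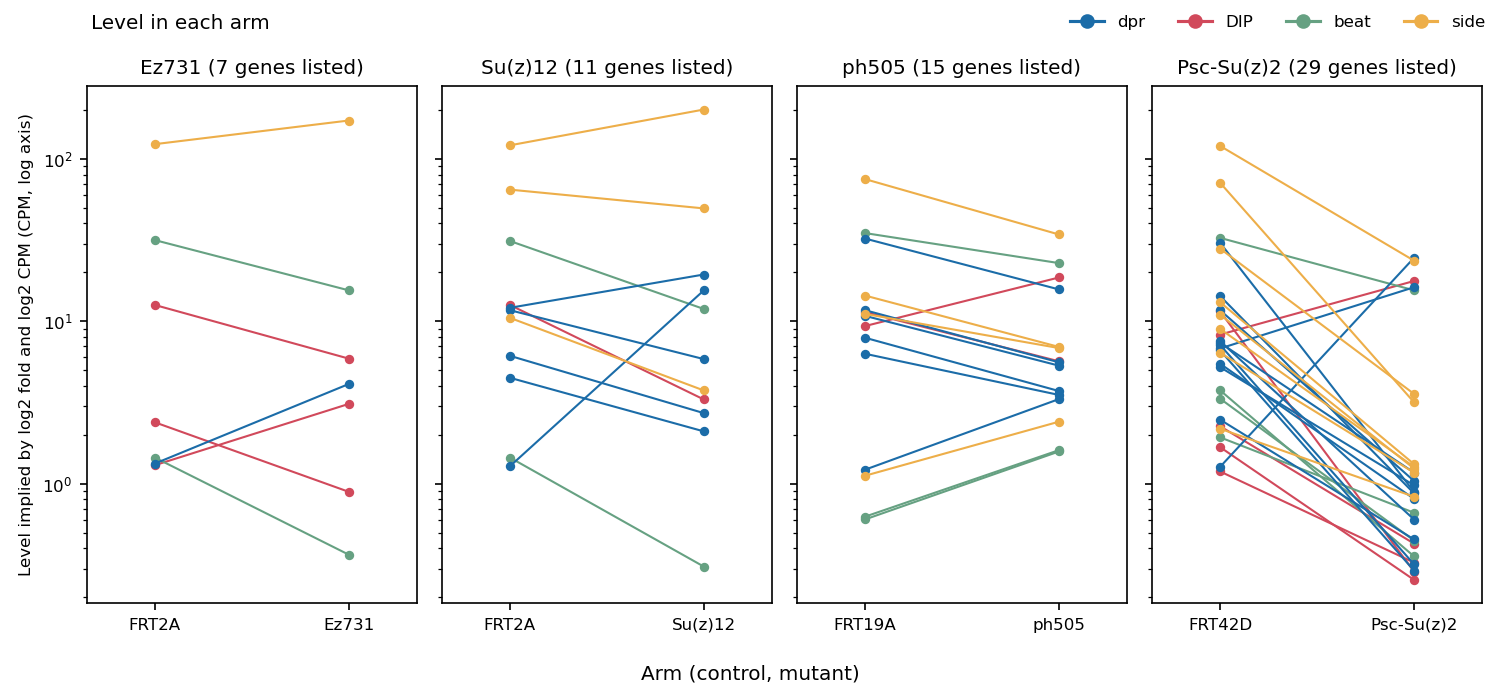
Level of each listed gene in the control and in the mutant arm (CPM on a log axis, from the deposited log2 fold and log2 CPM), 1 panel for each comparison and 1 line for each gene, coloured by family. In Psc-Su(z)2 nearly all lines run down, and 16 of the 26 that do end under 1 CPM, while dpr17 crosses them from 1.27 to 24.6 CPM.

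Of the 17 genes listed in 2 or more tables, 11 were lower in every table that listed them, dpr17 and DIP-alpha were higher in every one, and 4 went both ways. The 4 were dpr16, dpr19, side-V and side-VIII. The gene side-V (FBgn0085400) had 123.0 and 121.0 CPM in FRT2A by the 2 tables and 120.0 CPM in FRT42D. It had 172.0 CPM in Ez731, 201.0 CPM in Su(z)12 and 23.6 CPM in Psc-Su(z)2. The controls were nearly equal, both PRC2 mutants lay above them, and Psc-Su(z)2 lay below. The deposited log2 folds were 0.49 (edgeR adjusted p = 0.00382), 0.73 (1.36e-06) and −2.35 (1.04e-106).

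The gene dpr19 had 12.1 CPM in FRT2A and 19.4 CPM in Su(z)12 (deposited log2 fold 0.69, edgeR adjusted p = 0.023). It was lower in the PRC1 mutants, with 10.8 CPM in FRT19A and 5.33 CPM in ph505 (−1.02, edgeR adjusted p = 0.000842), and 14.3 CPM in FRT42D and 0.872 CPM in Psc-Su(z)2 (−4.04, 6.04e-35). The gene dpr16 ran opposite to dpr19 in Su(z)12 and Psc-Su(z)2 and with it in ph505, with 6.13 CPM in FRT2A and 2.72 CPM in Su(z)12, 11.7 CPM in FRT19A and 5.59 CPM in ph505, and 6.80 CPM in FRT42D and 16.2 CPM in Psc-Su(z)2. Its FRT19A control stood above the other controls, and its deposited log2 folds were −1.17 (edgeR adjusted p = 0.00961), −1.06 (0.00162) and 1.25 (1.3e-08). The gene cno, which overlaps dpr16 in the annotation and has 276.0 CPM in FRT42D, was also higher in Psc-Su(z)2 (0.44, edgeR adjusted p = 1.53e-08), and its part in the dpr16 value was not tested. At a low level, side-VIII was higher in ph505 (1.11, edgeR adjusted p = 0.0284) and lower in Psc-Su(z)2 (−1.39, 0.00796), from 1.12 and 2.18 CPM in their controls.

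The 2 PRC1 mutants have separate controls. Of 13 genes of the families listed in both ph505 and Psc-Su(z)2, 11 had the same direction (84.6%), as did 87.8% of all 1977 genes listed in both, so this share stood near the background. With the ph505 table read the other way round, it would be 2 of 13 (15.4%) and 12.2%. In all 11 the fold was larger in Psc-Su(z)2, as in 83.6% of all genes with a shared direction. Against Psc-Su(z)2, 8 of 11 genes from the Su(z)12 table (72.7%) and 5 of 6 from the Ez731 table (83.3%) had the same direction, where it was 77.0% of 1061 and 67.2% of 692 over all genes.

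The 22 genes listed in no table were dpr2, dpr3, dpr4, dpr6, dpr13, dpr14, dpr15, dpr20, dpr21, DIP-beta, DIP-gamma, DIP-iota, DIP-lambda, DIP-zeta, beat-Ia, beat-Ib, beat-Ic, beat-IIb, beat-IIIa, beat-Va, beat-Vb and beat-Vc. The lowest log2 CPM listed in a table was between −0.61 and −0.31, so genes at lower levels appear in none of them. DIP-lambda and beat-IIIa carry gene numbers above any in the tables, so they could not be found under these numbers.

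Other neuronal genes were mostly lower as well, beside 65.0% lower of all called genes in Ez731, 59.7% in Su(z)12, 54.7% in ph505 and 48.9% in Psc-Su(z)2. Of 65 neuronal surface and guidance genes outside the 4 families, the called ones were lower in 8 of 10 cases in Ez731 and 16 of 18 in Su(z)12, and in 29 of 34 cases (ph505) and 42 of 53 (Psc-Su(z)2) in the PRC1 mutants. Their median log2 folds were −0.62, −0.66, −0.74 and −1.23. In Psc-Su(z)2 they lay at higher levels than the dpr, DIP, beat and side genes, with a median log2 CPM of 7.07 against 2.09, and at low levels only larger folds are called. The 18 of them below the median log2 CPM of that table had 17 lower and a median log2 fold of −2.55, close to the −2.76 of the 4 families. Deposited folds in Psc-Su(z)2 were −5.90 for fipi, −5.0 for klg, −4.73 for Sema2b, a secreted guidance ligand, and −4.48 for robo3, a receptor for Slit. Dscam4 was at −3.62 in Ez731, −3.91 in Su(z)12 and −4.06 in Psc-Su(z)2, and at 2.18 in ph505. The gene robo2 was higher in Ez731 (0.93), Su(z)12 (1.23) and Psc-Su(z)2 (1.05).

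Of 42 neuronal differentiation genes, the PRC2 tables listed 8 of 9 (Ez731) and 18 of 19 (Su(z)12) as lower, and those of PRC1 mutants 14 of 19 (ph505) and 25 of 29 (Psc-Su(z)2), with median log2 folds of −0.76, −1.17, −0.76 and −2.41. In Psc-Su(z)2 the deposited folds were −6.25 for scrt, a neuronal transcription factor gene, −5.48 for Appl, −4.93 for brp, of the presynaptic active zone, and −4.60 for ase. The summed level of the called list members was 2500 CPM in FRT42D and 805 CPM in Psc-Su(z)2. Of 22 photoreceptor genes, 11 of 11, 13 of 13, 14 of 14 and 17 of 17 called were lower, with medians of −1.14, −1.74, −1.03 and −5.17, and sev stood at −6.87 in Psc-Su(z)2. The fall of the dpr, DIP, beat and side genes thus stood beside a fall of genes of the neurons themselves. In a whole disc, fewer neurons and less RNA per neuron cannot be told apart.

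**Figure D4:**
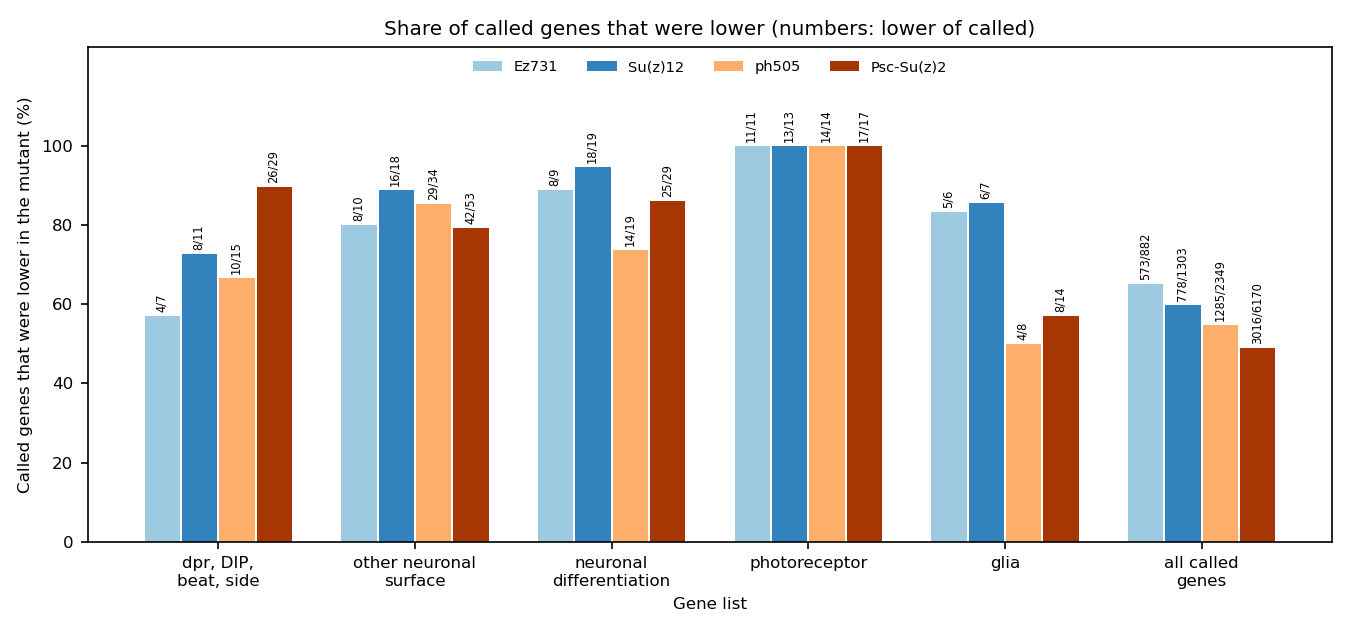
Share of called genes that were lower in the mutant (bars from 0, in %), for the 4 families, 4 lists of neural genes and all called genes, with a bar for each mutant and the count of lower of called genes above it. In Psc-Su(z)2 26 of 29 genes of the families were lower, beside 25 of 29 neuronal differentiation genes and 3016 of all 6170 called genes.

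Markers of other cells moved with the mutants too, and their part in the values above was not tested. Of 15 glia markers, the PRC2 tables listed 5 of 6 (Ez731) and 6 of 7 (Su(z)12) as lower, and those of PRC1 mutants 4 of 8 (ph505) and 8 of 14 (Psc-Su(z)2). Their summed level went from 272 to 215 CPM in Ez731, 238 to 169 in Su(z)12, 1470 to 2130 in ph505 and 1530 to 1010 in Psc-Su(z)2. The rise in ph505 was that of bnb (557 to 1330 CPM), and without it the sum went from 915 to 795 CPM. Most of the fall in Psc-Su(z)2 was also that of bnb (609 to 191 CPM), and without it the sum went from 923 to 821 CPM. The defining glial gene repo was listed in Psc-Su(z)2 alone, at −2.92. The largest falls of the glia list there were those of Gs2 (−4.2) and Mdr65 (−3.36). Of the 6 glia markers that were higher there, Tret1-1 (2.55) and gcm (2.53) rose most. Of 21 muscle markers, 12 of 12, 12 of 12, 15 of 15 and 13 of 16 called were lower, and their summed level went from 1320 to 694 CPM in Ez731, 1290 to 657 in Su(z)12, 724 to 365 in ph505 and 1540 to 1260 in Psc-Su(z)2. Of 11 fat body markers, 7 of 7, 7 of 7, 8 of 8 and 1 of 3 called were lower. Their summed levels went from 2990 to 417 CPM, 2950 to 406, 613 to 77.4 and 76.3 to 85.0. Of 18 hemocyte markers, 10 of 11, 10 of 11, 10 of 12 and 2 of 14 called were lower. Their summed levels went from 1440 to 951 CPM, 1420 to 1050, 1030 to 985 and 784 to 2880, in the same order of mutants. The gene Ppn was higher in all 4 tables, and without it the sums went from 1020 to 339 CPM, 1010 to 460, 544 to 343 and 390 to 881. Markers that a table does not list have no level here. A sum thus covers only genes called in that mutant, and sums of different mutants can cover different genes and are not comparable.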

How the data were processed

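RNA-seq of L3 eye discs was used from the authors' deposited tables, 1 for each of 4 mutants. Per the submitters' processing notes, reads were processed on build BDGP5 with the tools edgeR 2.6.2, TopHat2 2.0.8b and Bowtie2 2.1.0.0, named without their order. The log2 fold and log2 CPM values are the authors', per the file headers. Each p-value and each false discovery rate is likewise deposited by the authors, and only genes under 5% are listed. No count model was refitted. No label says how the replicates entered the test.

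Symbols came from a table of gene identifiers, which gave none for 43, 72, 136 and 289 identifiers in the tables of Ez731, Su(z)12, the ph505 label and Psc-Su(z)2. The number of genes tested (8934, 8907, 8804 and 8886) was taken as the most common product of rank and false discovery rate divided by p, and was found exactly when tested on simulated data. Control levels were taken as 2 × CPM / (1 + fold), with CPM as 2 to the power of the deposited log2 CPM, and mutant levels as that times the fold. Gene order and overlap came from the Release 6 annotation. Because the regions of the ChIP-seq lists could not be set on that release, binding at these genes was not analysed here, and no coordinates or sequences are printed.

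Genes and lists were chosen with earlier results of these data known. Every listed gene of the families could be named, with values from all tables for those in 2 or more tables and for the 5 highest and 5 lowest folds of each table. Of the other lists, up to 4 of the largest folds per table could be named. Nepl6 and cno, which overlap named genes, and bnb, Ppn, gcm and Tret1-1 in further tables were chosen after their values were seen. So were Tm1, Mlc2 and Mef2, the sums without bnb or Ppn, and the low-level surface genes. Alternatives were a 1% false discovery rate, a 2-fold change, a log2 CPM at or above the table median, each pair of families alone, and a turned ph505 table. Computation used Python 3.11.15, numpy 2.4.6, pandas 2.3.3 and matplotlib 3.10.9.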

Additional observations from a re-analysis of the deposited data

Results flagged for a closer look

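In 4 genes a call in 1 mutant went the opposite way to a call in another, and the difference itself was not tested. The gene dpr16 had deposited log2 folds of −1.17 in Su(z)12 and −1.06 in ph505 against 1.25 in Psc-Su(z)2. The gene dpr19 had 0.69 in Su(z)12 against −1.02 in ph505 and −4.04 in Psc-Su(z)2. The gene side-V had 0.49 in Ez731 and 0.73 in Su(z)12, which share a control, against −2.35 in Psc-Su(z)2. The gene side-VIII had 1.11 in ph505 against −1.39 in Psc-Su(z)2. Were the ph505 table to be read the other way round, side-VIII would be lower in both of its tables, while the other 3 would still go both ways, as would the genes that ph505 now shares in direction with another table.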

How the results depend on the processing

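No paired analysis was possible because each group is 1 sample and the tables give no values per replicate, so leaving out a replicate could not be run either. Of the 62 single calls, 50 passed a 1% false discovery rate, 54 a 2-fold change and 4 the median log2 CPM of their table, since these genes have low levels. At a 1% false discovery rate there were 2 genes lower in Ez731 and 2 higher in ph505, and medians were −0.27, −1.28, −1.03 and −2.79 in Ez731, in Su(z)12, in ph505 and in Psc-Su(z)2. At 2-fold or more 1 gene was higher in Su(z)12, and medians were −1.07, −1.28 and −1.02 in the first 3. At or above the median log2 CPM, 1 gene was higher and 0 lower in Ez731, 1 and 1 in Su(z)12, and 0 and 1 in Psc-Su(z)2, and none was left in ph505. The median there turned to 0.49 in Ez731 and 0.17 in Su(z)12 and was −2.35 in Psc-Su(z)2, a change made by having 1 or 2 genes left. For dpr and DIP genes alone, 2 were lower in Ez731, 4 in Su(z)12, 6 in ph505 and 14 in Psc-Su(z)2, 2 were higher in ph505, and medians were 0.08 (turned), −1.05, −1.02 and −2.72. For beat and side genes alone, 2, 4, 4 and 12 were lower and 1, 1, 3 and 0 higher, with medians of −1.40, −0.62 and −2.86 in the last 3. With the ph505 table turned in direction, 10 genes were higher and 5 lower, with a median of 0.84. The direction in Psc-Su(z)2 held under every alternative run, though above the median log2 CPM it rests on side-V alone. Depth is unknown, and folds of genes near 1 CPM rest on few reads.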
